A study of Homo sapiens with 4 samples.

Results

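AXL, CYR61 and FJX1 are transcripts that the co-activators YAP and TAZ are known to raise, and their levels were followed in 2 human lines of head and neck squamous cell carcinoma (HNSCC) after depletion of FOSL1. They were picked by symbol, with earlier results of these data known. All 3 were among the 2770 genes that the authors listed in either line and among the 678 listed in both. That listing is thus not independent of the choice. Total RNA came from cells of the lines SCC1 and FaDu, both labelled as HNSCC cells and grown in DMEM with serum, 48 h after a siRNA against FOSL1 or a control siRNA. Each of the 4 groups (SCC1 control, SCC1 FOSL1 depletion, FaDu control, FaDu FOSL1 depletion) had 1 library, so no difference has a replicate check and no test across conditions was made. FaDu is an established line from a hypopharyngeal tumour. No animal, transgene or pooled material was involved. The sources used here give neither the siRNA sequences nor their number, so an effect of the siRNA outside FOSL1 cannot be told apart from one of FOSL1 loss.

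The Hippo pathway is a kinase cascade that keeps YAP and TAZ out of the nucleus. When they enter it, they bind DNA through TEAD factors, often at enhancers that also carry AP-1, the dimer to which FRA1, the FOSL1 product, belongs. AXL is a receptor tyrosine kinase of the TAM family, activated by the ligand GAS6 and known in squamous carcinomas for its part in invasion and in resistance to EGFR inhibitors. CYR61, now also named CCN1, is a secreted matricellular protein of the CCN family that binds integrins. FJX1 is the human relative of four-jointed, which in Drosophila is a Golgi kinase that phosphorylates the cadherins Fat and Dachsous.

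In GENCODE v29, on build GRCh38, AXL is a gene of 20 exons on chromosome 19, CYR61 one of 5 exons on chromosome 1 and FJX1 a gene of 1 exon on chromosome 11, all on the forward strand, counted on the longest protein-coding transcript. AXL overlaps an antisense gene by 626 bases. The sources used here give no strand setting for the counting, so reads of that gene could be counted with AXL. The 250 bases before each annotated start of AXL and FJX1 are shown because TEAD and AP-1 letters there are the nearest sequence context of the transcripts compared below, and those of CTGF, now named CCN2, are shown beside them as the listed CCN relative of CYR61. No window was available for CYR61, so its own promoter letters were not examined. The sequences are from RefSeq on build GRCh38.p14. Capitals mark GGAATG, the core letters bound by TEAD factors, read on both strands. TGANTCA, the letters of an AP-1 site, and the CArG box of serum response factor were searched for too and were not found in these windows.
AXL, chr19:41218973-41219222, forward strand: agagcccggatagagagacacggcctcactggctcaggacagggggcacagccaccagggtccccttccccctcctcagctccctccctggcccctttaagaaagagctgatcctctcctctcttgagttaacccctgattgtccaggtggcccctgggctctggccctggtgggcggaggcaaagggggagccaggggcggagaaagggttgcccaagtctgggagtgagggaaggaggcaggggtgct
AXL, alternative start, chr19:41226505-41226754, forward strand: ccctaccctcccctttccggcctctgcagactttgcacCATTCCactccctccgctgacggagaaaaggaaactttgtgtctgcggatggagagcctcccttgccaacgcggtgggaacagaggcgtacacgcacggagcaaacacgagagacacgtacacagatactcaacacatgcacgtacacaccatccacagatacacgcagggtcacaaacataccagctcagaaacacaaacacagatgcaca
FJX1, chr11:35618210-35618459, forward strand: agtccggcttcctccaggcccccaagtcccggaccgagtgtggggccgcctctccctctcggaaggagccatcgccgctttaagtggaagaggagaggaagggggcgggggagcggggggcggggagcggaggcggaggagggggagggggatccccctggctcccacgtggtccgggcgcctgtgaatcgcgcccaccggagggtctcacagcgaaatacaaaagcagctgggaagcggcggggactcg
CTGF, chr6:131951373-131951622, reverse strand: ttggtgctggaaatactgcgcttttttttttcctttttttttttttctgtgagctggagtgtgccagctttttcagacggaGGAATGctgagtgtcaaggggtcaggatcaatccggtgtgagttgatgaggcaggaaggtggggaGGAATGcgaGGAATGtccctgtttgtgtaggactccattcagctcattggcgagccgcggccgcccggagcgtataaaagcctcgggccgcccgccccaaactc

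The window before the main AXL start and the FJX1 window held no GGAATG on either strand. The window before the alternative AXL start held 1 copy, on the reverse strand, 212 bases before the start. The CTGF window held 3 copies on the gene's own strand, starting 169, 104 and 95 bases before the start. Of all 35116 promoter windows of this length, 11.9% held GGAATG on either strand, 6.57% held TGANTCA and 1.16% held a CArG box. Of the 22 genes of a published YAP/TAZ signature, 16 had windows, and 8 of these 16 held GGAATG in at least 1 window, against 14.3% of all genes with windows. TGANTCA was held by 2 of the 16, against 8.06% of all genes with windows, and a CArG box by 0 of the 16, against 1.44%. TEAD binding helped to define YAP/TAZ targets, so the share with GGAATG is not independent of the list. A window without a motif says only that these letters are not in it.

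FOSL1 itself, the target, stood at 133 CPM (reads scaled to library size) in the SCC1 control library and at 3.99 CPM with FOSL1 siRNA. In FaDu it stood at 774 and 36.9 CPM. The labels and the target thus point the same way in both lines, with 3.01% of the control level remaining in SCC1 and 4.78% in FaDu. Effective library sizes were between 10365774 and 13242163 reads, and 3 reads, the floor used here, correspond to between 0.227 and 0.289 CPM. Each table lists only genes that passed the authors' comparison, none closer to 1 than 1.88-fold, so a gene outside it is called not listed, never unchanged.

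AXL, the receptor, stood at 141 CPM in the SCC1 control library and at 18.2 CPM in the SCC1 library with FOSL1 siRNA. In FaDu it stood at 127 CPM in the control library and at 6.46 CPM with FOSL1 siRNA. The control libraries of both lines were close in AXL, as far as tables normalized separately can be compared, and both FOSL1 siRNA libraries were far below them. AXL was 7.73-fold lower in SCC1, with a 95% exact binomial interval of 6.69 to 8.98, and 19.6-fold lower in FaDu, with an interval of 15.3 to 25.4. These and all further intervals in parentheses cover counting error only, and since PCR reads carry no molecular identifier and may be copies of 1 molecule, they can be too narrow even for that. The values rest on 1861 and 205 reads in SCC1 and on 1453 and 67 reads in FaDu. The authors' deposited table gave AXL an FDR of 1.95e-06 in SCC1 and of 5.88e-12 in FaDu. In bulk RNA, fewer cells with the transcript and less of it per cell cannot be told apart.

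CYR61, the matricellular ligand, stood at 86.6 CPM in the SCC1 control library and at 23.8 CPM with FOSL1 siRNA. In FaDu it stood at 304 CPM in the control library and at 103 CPM with FOSL1 siRNA. The FaDu library with FOSL1 siRNA still held more CYR61 than the SCC1 control library, a comparison of level set across tables that were normalized separately. CYR61 was lower by 3.63 times (3.18 to 4.16) in the SCC1 pair and by 2.96 times (2.76 to 3.17) in the FaDu pair. The authors' deposited table gave it an FDR of 0.00664 in SCC1 and of 0.0346 in FaDu.

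FJX1, the four-jointed relative, stood at 85.8 CPM in the SCC1 control library and at 33.4 CPM with FOSL1 siRNA. In FaDu it stood at 49.2 CPM in the control library and at 15.8 CPM with FOSL1 siRNA. FJX1 was lower by 2.57 times (2.28 to 2.89) in the SCC1 pair and by 3.11 times (2.61 to 3.73) in the FaDu pair. Its authors' FDR, in the authors' deposited table, was 0.0804 in SCC1 and 0.0304 in FaDu, so in SCC1 it was above 0.05. All 3 genes were thus lower in the FOSL1 siRNA library of each line, AXL by far the most. They were chosen with earlier results of these data known, so their shared direction is not independent of that choice. Setting the median log2 ratio of each table to 0 kept that direction but brought the log2 ratio of FJX1 to -0.31 in SCC1 and -0.62 in FaDu, that of CYR61 to -0.81 and -0.55, and that of AXL to -1.90 and -3.28.

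**Figure D1:**
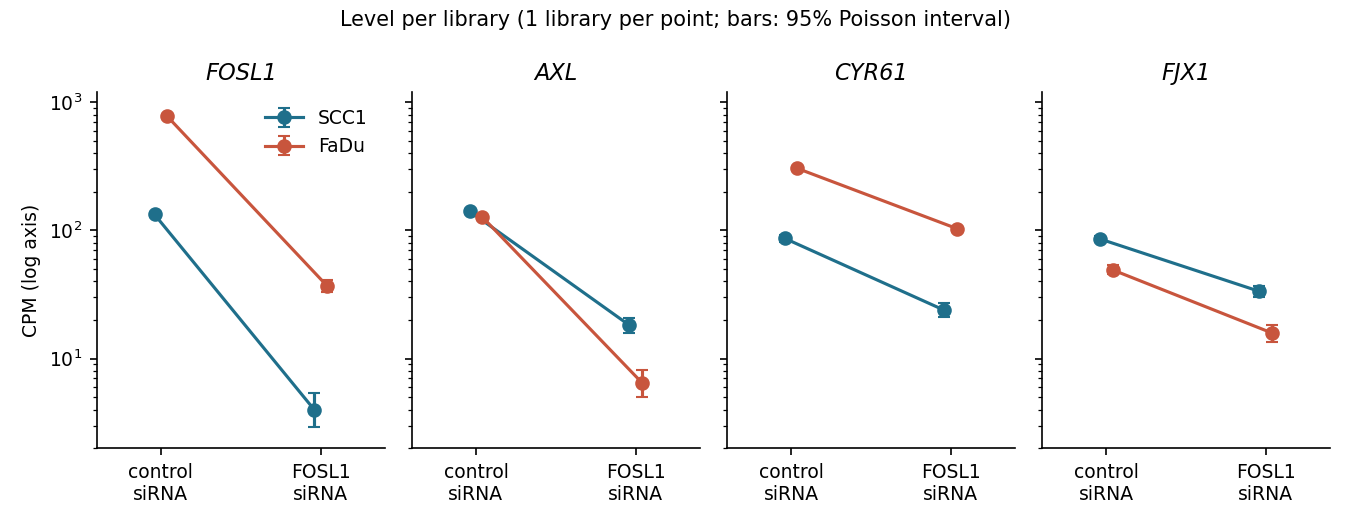
CPM on a log axis for FOSL1, AXL, CYR61 and FJX1 in the control and FOSL1 siRNA libraries of SCC1 and FaDu; each point is 1 library and bars are 95% Poisson intervals of its reads. AXL starts at 141 and 127 CPM and ends at 18.2 and 6.46 CPM, while CYR61 and FJX1 run nearly parallel between the lines.

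Per kilobase of the longest GENCODE v29 transcript, which may not be the gene model the authors counted on, the 3 levels can be set side by side within a library. In the SCC1 control the levels were 37.8 CPM per kb for CYR61, 35.0 for FJX1 and 29.7 for AXL. In the FaDu control they were 133 CPM per kb for CYR61, 26.7 for AXL and 20.1 for FJX1. After FOSL1 siRNA, AXL was the lowest of the 3 in both lines, at 3.84 CPM per kb in SCC1 and 1.36 in FaDu. CYR61 and FJX1 stood at 10.4 and 13.6 CPM per kb in SCC1 and at 44.8 and 6.46 in FaDu. In the SCC1 control CYR61 and FJX1 had 1147 and 1136 reads, CPM values whose intervals overlap, so their order per kilobase there follows from the transcript lengths used and is not given. CYR61 was the highest of the 3 in both FaDu libraries.

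The share of the control level that remained was 12.9% for AXL, 27.5% for CYR61 and 39.0% for FJX1 in SCC1. In FaDu it was 5.11% for AXL, 33.8% for CYR61 and 32.1% for FJX1. The intervals of the folds of the 3 genes do not overlap in SCC1, where the order was AXL, CYR61, FJX1. In FaDu the interval of AXL lies apart and those of CYR61 and FJX1 overlap, so their order cannot be given. The difference in AXL level, siRNA minus control, was -122 CPM in SCC1 and -120 CPM in FaDu.

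The lines were then compared for each gene by the ratio of their siRNA to control ratios. For AXL the ratio was 2.53 times as high in SCC1 as in FaDu (exact conditional interval 1.9 to 3.42), so the difference was deeper in FaDu by more than counting error. For CYR61 it was 0.815 times that in FaDu (0.699 to 0.948), deeper in SCC1. For FJX1 it was 1.21 times that in FaDu, with an interval of 0.979 to 1.5 that includes 1. FOSL1 ran the other way from AXL, with a ratio in SCC1 0.630 times that in FaDu (0.450 to 0.864). With 1 library per group, whether these line differences exceed the spread between cultures was not tested.

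Among the 1130 listed genes that were lower in SCC1, AXL ranked 53, CYR61 246 and FJX1 581 by the size of the difference. Among the 889 that were lower in FaDu, AXL ranked 24, FJX1 326 and CYR61 360. FOSL1 ranked 19 and 22. In the median listed gene that was lower, the log2 ratio was -1.38 in SCC1 and -1.39 in FaDu. FJX1 in SCC1, at -1.36, was close to that median, and CYR61 in FaDu, at -1.57, was a little beyond it. Genes at least 4-fold lower were 1.44% of the 13796 genes that the authors tested in SCC1 and 1.38% in FaDu, and AXL was the member among them in both.

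**Figure D2:**
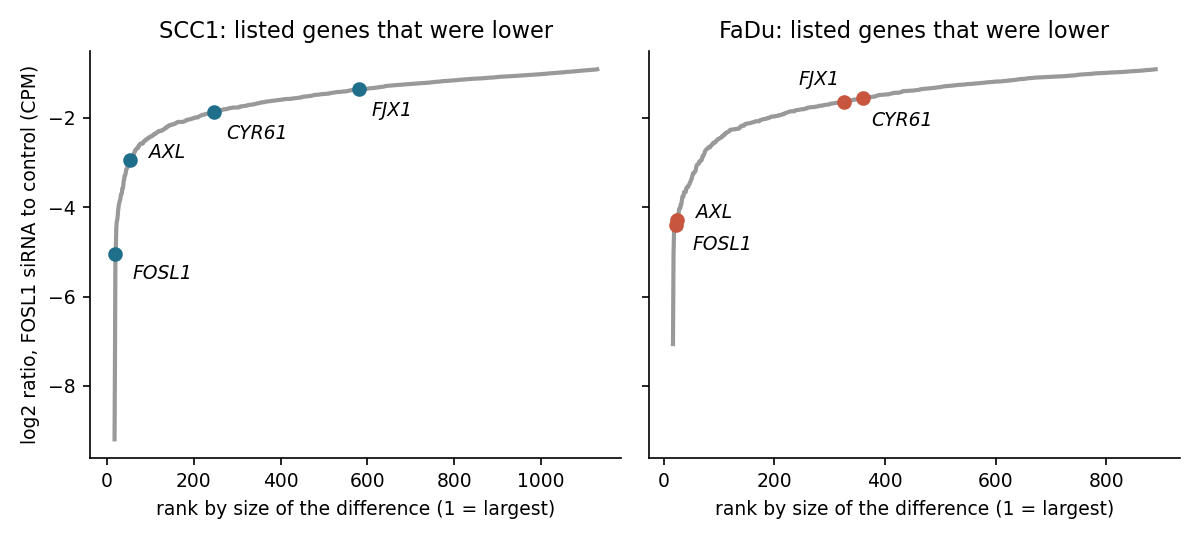
The log2 ratio of FOSL1 siRNA to control CPM for listed genes that were lower, ordered by size, in SCC1 and FaDu; genes at 0 reads after siRNA take the first ranks and have no point on the curve. AXL sits on the steep part at ranks 53 and 24, and CYR61 and FJX1 on the shallow part.

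The test on the recovered reads compares 2 libraries and depends on the spread assumed between cultures. With a dispersion of 0.05, edgeR gave back the authors' deposited p-values to within 1% for all 1903 genes listed in SCC1 and all 1545 in FaDu. The assumed spread was then raised until each gene was no longer under the 0.05 threshold. AXL stayed under it up to a biological coefficient of variation of 0.684 in SCC1 and 0.935 in FaDu. CYR61 stayed under it up to 0.448 in SCC1 and 0.382 in FaDu. FJX1 stayed under it up to 0.332 in SCC1 and 0.395 in FaDu. FOSL1 stayed under it up to 1.06 in SCC1 and 0.954 in FaDu, so that AXL and FOSL1 were nearly alike in FaDu. At 0.4, a dispersion of 0.16, the test called 483 of the genes listed in SCC1 and 461 of those in FaDu. AXL was called in both lines at that spread, CYR61 in SCC1 and FJX1 in neither line.

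**Figure D3:**
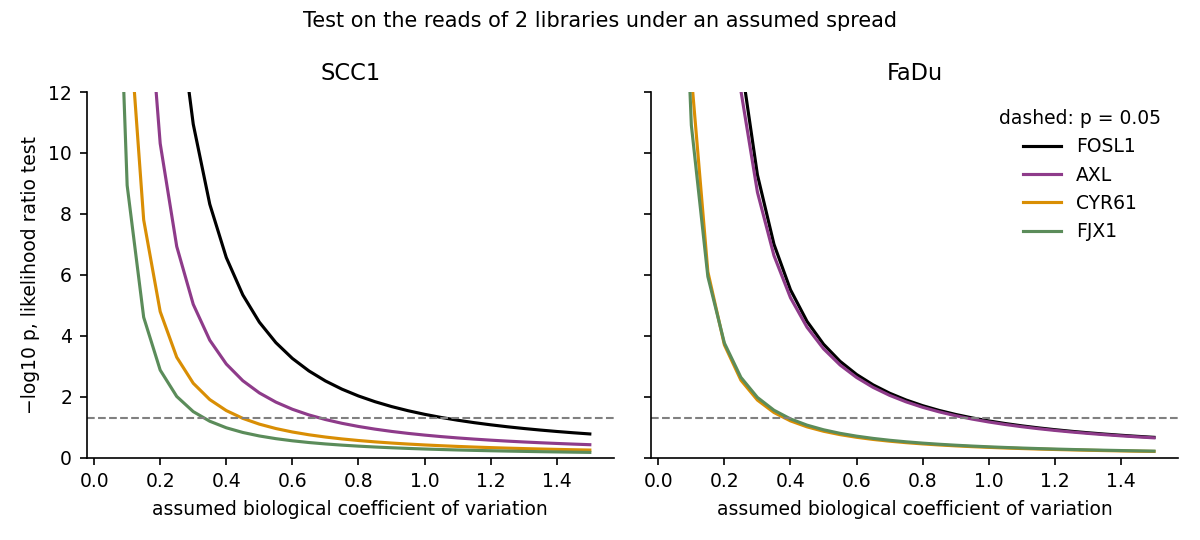
Strength of the difference between the siRNA and control libraries, as −log10 p from edgeR with an assumed spread, against the biological coefficient of variation assumed between cultures, for FOSL1, AXL, CYR61 and FJX1 in SCC1 and FaDu; the dashed line is the 0.05 threshold and the vertical axis stops at 12. AXL crosses the line at 0.684 in SCC1 and 0.935 in FaDu, and CYR61 and FJX1 cross it between 0.332 and 0.448.

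The published signature of 22 YAP/TAZ targets, of which the 3 genes are part, showed listed members in 1 direction. In SCC1, 10 of 22 were listed and lower, none was listed as higher and 12 were not listed, where 8.19% of all tested genes were listed as lower. In FaDu, 11 of 22 were lower, none was higher and 11 were not listed, against 6.44% of all tested genes. Without AXL, CYR61 and FJX1, 7 and 8 of the other 19 were lower. The median log2 ratio of the listed signature genes was -1.36 in SCC1 and -1.57 in FaDu, against -1.05 and -1.01 over all listed genes. Those medians include higher genes, which the listed signature genes do not. Over the listed genes that were lower, the medians were -1.38 and -1.39, so the signature median was no deeper in SCC1 and a little deeper in FaDu. An authors' FDR under 0.05 was met by 3 of 22 in SCC1 and 7 of 22 in FaDu, against 2.21% and 1.6% of all tested genes that met it and were lower. In SCC1 the 3 were AXL, CYR61 and TGFB2, the last at an FDR of 0.027. In FaDu the 7 included AXL, CYR61 and FJX1. These counts thus hold genes under study and are not independent of their choice. With the median log2 ratio of each table set to 0, 3 and 4 of the 22 were lower by 1.5-fold. The list was chosen with earlier results of these data known, and how far the expression level of its genes sets these shares was not tested.

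Of these 22 signature genes, 8 were lower in both lines, as were 3.10% of all tested genes. They include AXL, CYR61 and FJX1, which were chosen with earlier results of these data known. The 8 are thus not independent of that choice. Beside the 3 genes they were CTGF, F3, GADD45A, NT5E and DOCK5. CTGF, the other classical CCN target, stood at 35.7 and 14.7 CPM in SCC1 and at 11.8 and 3.47 CPM in FaDu. It was lower by 2.43 times (2.03 to 2.91) in the SCC1 pair and by 3.41 times (2.35 to 5.07) in the FaDu pair. F3, which encodes tissue factor, went from 568 to 223 CPM in SCC1 and from 1586 to 792 CPM in FaDu. NT5E, the ecto-nucleotidase CD73, was lower by 2.31 times (2.14 to 2.5) in the SCC1 pair and by 5.29 times (4.23 to 6.67) in the FaDu pair, deeper in FaDu like AXL. GADD45A, a stress and growth arrest gene, was lower by 2.49 times (2.22 to 2.8) in the SCC1 pair and by 2.88 times (2.53 to 3.29) in the FaDu pair. DOCK5, an activator of the GTPase Rac, was lower by 2.81 times (2.33 to 3.41) in the SCC1 pair and by 3.01 times (2.54 to 3.58) in the FaDu pair. For CTGF, F3, GADD45A, NT5E and DOCK5 the authors' FDR in SCC1 was between 0.0529 and 0.137. In FaDu it was 0.319 for F3 and under 0.05 for the others. AXL was the lowest of the listed signature genes in both lines by its ratio.

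TGFB2 and RBMS3 were listed in SCC1 and not in FaDu, both at low levels. TGFB2, a ligand of the TGF-beta family, stood at 4.30 CPM in the control and 0.975 CPM with FOSL1 siRNA. AMOTL2, MYOF and NUAK2 were listed in FaDu and not in SCC1. AMOTL2, an angiomotin that also restrains YAP, was 2.78-fold lower (2.45 to 3.15). MYOF, a membrane repair protein, was 1.92-fold lower (1.84 to 2.0) and NUAK2, a kinase, 2.04-fold lower (1.64 to 2.54). The authors' FDR was 0.0593 for AMOTL2, 0.379 for MYOF and 0.347 for NUAK2 in FaDu. In SCC1 it was 0.027 for TGFB2 and 0.299 for RBMS3. Whether the lines differ in these 5 genes was not tested, since a gene that is not listed has no value here.

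**Figure D4:**
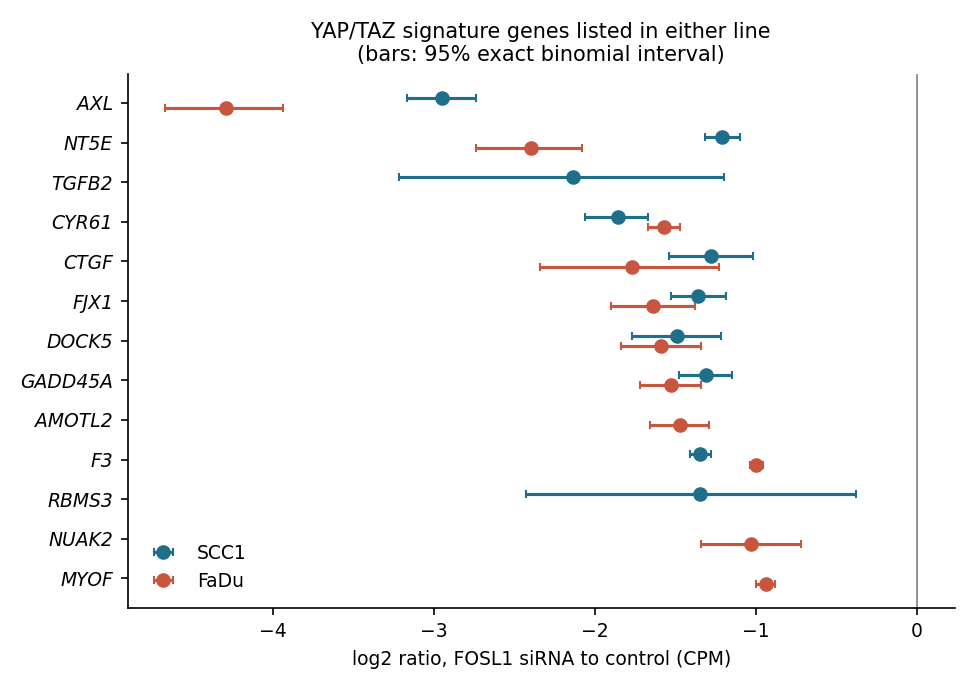
The log2 ratio of FOSL1 siRNA to control CPM, with 95% exact binomial intervals, for the 13 YAP/TAZ signature genes listed in SCC1 or FaDu. All points lie below 0, AXL lies farthest from it in both lines, and NT5E is the other gene whose FaDu value lies well below its SCC1 value.

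A further 22 YAP/TAZ targets outside that signature were more mixed. In SCC1, 7 were lower, 2 were higher and 13 were not listed. Those lower included EDN1, FGF2, FLNA, INHBA, MYC and THBS1. EDN1, the gene of endothelin-1, was 6.21-fold lower (3.53 to 11.8) and FGF2, a fibroblast growth factor, 3.48-fold lower (3.08 to 3.94). INHBA, an activin subunit, was 3.29-fold lower (2.4 to 4.58), THBS1, the matricellular thrombospondin, 3.02-fold lower (2.81 to 3.25), FLNA, an actin crosslinker, 2.95-fold lower (2.86 to 3.03) and MYC 2.35-fold lower (2.16 to 2.56). SGK1, a serum-induced kinase, was 4.14-fold higher (3.87 to 4.42) and DLC1, a RhoA inhibitor, 2.82-fold higher (2.49 to 3.18). Of all genes tested in SCC1, 8.19% were listed as lower and 5.6% as higher, against 31.8% of these targets that were lower. An authors' FDR under 0.05 was met by 8 of the 9 listed in SCC1, against 27.4% of all listed genes. Of these, 6 were lower and 2 higher, SGK1 at 0.00186 and DLC1 at 0.0441, while MYC had 0.127. This list too was chosen with earlier results of these data known. In FaDu, 2 were lower, FGF2 at 2.34-fold (2.07 to 2.64) and THBS1 at 2.12-fold (1.97 to 2.29), and TNS1, a focal adhesion protein, was 2.77-fold higher (1.88 to 4.15). That is 9.09% lower, near the 6.44% of all tested genes, while listed and higher were 4.76%.

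The factors and kinases above these targets were mostly not listed. YAP1, which encodes YAP, and WWTR1, which encodes TAZ, were in neither table. Of the 10 YAP, TAZ, TEAD and VGLL genes, 2 were lower in SCC1, 2 were lower in FaDu and none was higher. Of all tested genes, 8.19% were listed as lower in SCC1 and 6.44% in FaDu. TEAD3 was lower by 1.96 times (1.66 to 2.31) in the SCC1 pair and by 2.45 times (1.98 to 3.06) in the FaDu pair. TEAD1 was 2.03-fold lower in FaDu (1.82 to 2.26). VGLL1, a cofactor that binds TEAD factors, went from 5.21 to 0.886 CPM in SCC1. The authors' deposited table gave TEAD1 and TEAD3 an FDR above 0.05, between 0.146 and 0.315, and VGLL1 0.0051.

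Of the 20 Hippo kinases and inhibitors of YAP and TAZ, 1 was lower in SCC1, 2 were lower in FaDu and none was higher. AJUBA, a LIM protein that inhibits LATS kinases, was 2.87-fold lower in SCC1 (2.69 to 3.06). MAP4K4, a kinase upstream of LATS, was 2.27-fold lower in FaDu (2.14 to 2.41), beside AMOTL2. These shares, 5.0% and 10.0%, are near the 8.19% and 6.44% of all tested genes. LATS1 and LATS2, STK3 and STK4, and NF2 were in neither table.

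Among the 7 genes of TAM receptors, their ligands and the proteases that shed AXL, AXL was the one listed in FaDu. AXL was also the 1 gene lower in SCC1, where 2 were higher. That is 14.3% lower in each line, AXL itself, against 8.19% of all tested genes in SCC1 and 6.44% in FaDu. Listed as higher were 5.6% of all genes tested in SCC1. In SCC1, MERTK, another TAM receptor, went from 6.04 to 13.5 CPM and was 2.23-fold higher (1.69 to 2.96). ADAM17, a protease that sheds AXL, went from 75.1 to 170 CPM and was 2.27-fold higher (2.1 to 2.45). The authors' deposited table gave these an FDR of 0.218 and 0.150. The ligand genes GAS6 and PROS1, the receptor TYRO3 and the protease ADAM10 were in neither table.

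Of the 6 CCN genes, CYR61 and CTGF were lower in both lines, as were 3.10% of all tested genes. CYR61 is itself a gene under study, which leaves CTGF as the other gene of that count. NOV, now CCN3, was 4.4-fold higher in FaDu (3.03 to 6.53), going from 3.14 to 13.8 CPM. Of 11 genes of CYR61 receptors, 1 was lower in SCC1, and 2 were lower and 2 higher in FaDu. The 9.09% lower in SCC1 is near the 8.19% of all tested genes, and the 18.2% lower and 18.2% higher in FaDu stand against 6.44% and 4.76%. ITGB1, the beta-1 integrin, went from 655 to 169 CPM in SCC1 and from 674 to 230 CPM in FaDu. It was lower by 3.88 times (3.69 to 4.08) in the SCC1 pair and by 2.93 times (2.8 to 3.07) in the FaDu pair, close to CYR61 in both. ITGB2, the leukocyte integrin chain, was 3.52-fold lower in FaDu (2.8 to 4.46) and LRP1, an endocytic receptor, 1.93-fold higher (1.75 to 2.12). ITGA2B had 3 reads, the floor used here, in the FaDu control and 12 with FOSL1 siRNA, a ratio of 4.43 (1.2 to 24.5). The 2 higher genes, LRP1 and ITGA2B, had an FDR of 0.384 and 0.296 in the authors' deposited table.

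Of the 7 genes of the Fat and Dachsous system, FJX1, itself a gene under study, was the gene listed in both lines. Lower in both lines were 3.10% of all tested genes. With FJX1 included, 28.6% of the 7 were listed in each line, against 13.8% of all tested genes in SCC1 and 11.2% in FaDu. FAT4, the receptor cadherin closest to Drosophila Fat, was 2.37-fold lower in SCC1 (1.51 to 3.82), at 5.66 and 2.39 CPM. FAT2, an atypical cadherin of epithelia, was 1.96-fold higher in FaDu (1.83 to 2.09), at 115 and 225 CPM. The authors' deposited table gave FAT4 an FDR of 0.248 and FAT2 one of 0.358. DCHS1 and DCHS2, which encode the Dachsous ligands, and FAT1 were in neither table.

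The genes whose pair of log2 ratios lay nearest to each member were looked up among 534 other genes that were listed in both lines, reached 5 CPM in each and had reads in all 4 libraries. The measure is the Euclidean distance over the 2 comparisons, SCC1 and FaDu, each of which rests on 1 pair of libraries. AXL, at -2.95 and -4.29, had no gene within 0.5 among these. Its nearest were CPA4 at a distance of 0.900, AMMECR1 at 0.935, ETS1 at 0.940, PTX3 at 0.973 and LTB at 1.27. CPA4, a carboxypeptidase, had log2 ratios of -3.84 and -4.16, and ETS1, a transcription factor, -2.48 and -3.48. Of these 534 genes, FOSL1 was the one at least as low as AXL in both lines. With no level minimum, an alternative chosen after seeing the data, 659 genes were compared and 2 lay within 0.5 of AXL. They were SPOCD1 at a distance of 0.341 and SERPINB7 at 0.494, with at most 0.386 and 0.975 CPM in the siRNA libraries, and 2 genes were then at least as low as AXL in both lines.

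CYR61 had 93 of the 534 genes within 0.5 and FJX1 had 134, and with no level minimum 118 and 158 of the 659. The nearest to CYR61, at -1.86 and -1.57, were UNC13D, PDE8A, INPP5F, ITGB1 and RIN1, all within 0.116. ITGB1, a receptor chain of CYR61 and thus on a list used above, had log2 ratios of -1.95 and -1.55. The nearest to FJX1, at -1.36 and -1.64, were SLC39A14, ZNF594, PABPC1L, SERF2 and FAM83H-AS1, all within 0.102. CYR61 and FJX1 thus lay in a dense region of genes that were lower in both lines, and AXL in a sparse one. Listed and lower in both lines were 428 genes, 3.10% of those tested.

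**Figure D5:**
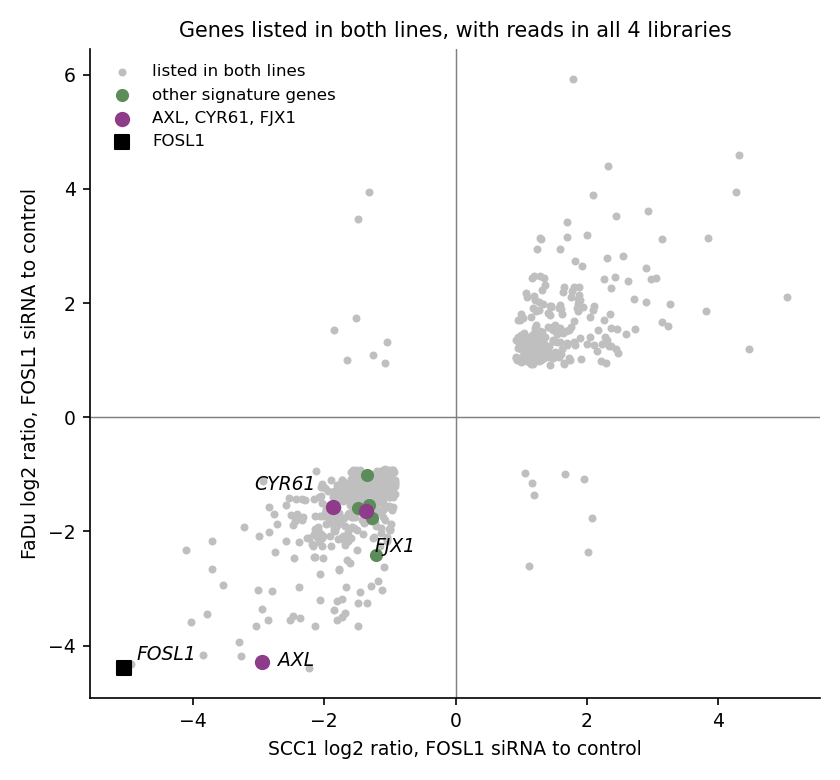
The log2 ratio of FOSL1 siRNA to control in SCC1 (x) and FaDu (y) for genes listed in both lines with reads in all 4 libraries; each point is a gene, with the other listed YAP/TAZ signature genes in green. AXL lies at -2.95 and -4.29, near the lower edge, and CYR61 and FJX1 lie inside the dense group of genes that were lower in both lines.

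AXL and CYR61 are also made by fibroblasts, so markers of other cells were read beside them. In FaDu, 4 of 14 fibroblast markers were listed, all lower, with a summed level of 21.6 CPM in the control and 8.39 CPM with FOSL1 siRNA. That is 28.6% lower, against 6.44% of all tested genes. The authors' deposited table gave COL3A1 an FDR of 0.0449, and POSTN, MMP2 and COL6A3 between 0.353 and 0.417. In SCC1, 0 of 14 were listed. Of 14 leukocyte markers, CD68 was lower in both lines and CD14 was higher in FaDu, and 0 of 10 endothelial markers were listed. The 7.14% of leukocyte markers lower in each line is near the 8.19% in SCC1 and 6.44% in FaDu of all tested genes. CD68 was 4.34-fold lower in SCC1 and 4.26-fold in FaDu, at an authors' FDR of 0.00399 and 0.00281. CD14 had an authors' FDR of 0.213. Markers that are not listed have no level here, so which of them were at 0 is not known. Of 13 squamous epithelial markers, 3 were listed in FaDu and 1 in SCC1, all higher, where 4.76% and 5.6% of all tested genes were listed as higher. In FaDu, the keratin KRT17 went from 794 to 2609.4 CPM, the plakophilin PKP1 from 21.2 to 69.8 CPM and the keratin KRT16 from 4.79 to 20.1 CPM with FOSL1 siRNA. Their summed level went from 820 to 2699.3 CPM. In SCC1, CDH1, which encodes E-cadherin, went from 101 to 192 CPM, with an authors' FDR of 0.327. As 1 of 13 it makes 7.69%, near the 5.6% of all genes tested in SCC1. The part of all these markers in the results was not tested.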

How the data were processed

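RNA-seq of total RNA from 4 libraries was used, 1 per group. For each line the authors deposited a table restricted to genes past their comparison. TopHat, Cufflinks and build hg18 are named in the submitters' processing notes; for versions, read counter, normalization and strand setting, nothing is given in the sources used here. Per the file headers and the values, the expression columns hold CPM, and the authors' signed fold (a score, negative where FOSL1 siRNA was lower), p-value and FDR stand beside them. The SCC1 control column carries a 2 in its name, and no label says why. In all 4 columns 100% of CPM values came out as whole reads (tolerance 0.01 read), and these reads were used. From FDR divided by p-value at the first gene, 13796 genes were tested in each line.

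Folds are ratios of CPM with no pseudocount, with exact binomial intervals at 95% confidence; line comparisons use the exact conditional odds ratio. Genes past 1.5-fold were counted, which all listed genes met. With 1 library per group, no list was tested. On the recovered reads edgeR's likelihood ratio test was run at assumed dispersions of 0.05 and 0.16 (0.16 chosen after seeing the data), where it called 1903 and 483 genes in SCC1 and 1545 and 461 in FaDu at an unadjusted p under 0.05. At the dispersion of 0.05 the test gave back the authors' p-values, so its call of every listed gene was fixed by their selection. The test compares libraries, not conditions.

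AXL, CYR61, FJX1, the 14 gene lists and the rule for naming genes were chosen with earlier results of these data known. The rule takes the listed members of the YAP/TAZ, Hippo, TAM, CCN, receptor and Fat lists, up to 4 of other lists, and 5 nearest genes per member; readthrough rows were left out of the nearest genes. Not every gene the rule takes is reported by name here. Promoter windows were matched by symbol for 2 of the 3 genes, AXL and FJX1. Older and newer symbols were both looked up. Software was Python 3.11.15, numpy 2.4.6, pandas 2.3.3, SciPy 1.17.1, matplotlib 3.10.9, R 4.3.3 and edgeR 4.0.16.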

Additional observations from a re-analysis of the deposited data

How the results depend on the processing

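No paired analysis was possible because each group has 1 library. Of 90 recomputed values, 70 stayed inside the ratio's interval or within 1.5 times of the count and 20 did not. Some could not move, such as counts of 0 under a stricter threshold, so this tally is not a measure of stability. No ratio changed direction. Adding 1 or 0.1 CPM to both libraries, or setting the midpoint between the higher and the lower medians to 0 (a shift of -0.01 in SCC1 and 0.04 in FaDu on log2), left all 6 ratios of AXL, CYR61 and FJX1 inside their intervals. Setting the median log2 ratio of listed genes to 0, a shift of -1.05 in SCC1 and -1.01 in FaDu, moved all 6: AXL to -1.90 and -3.28, CYR61 to -0.81 and -0.55, and FJX1 to -0.31 and -0.62 (SCC1, then FaDu). That median is itself the value of a lower gene, because more of the listed genes were lower than higher and none was near 1.

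Of the 22-gene signature, 10 were lower in SCC1 and 11 in FaDu. With that median set to 0, 3 and 4 were. At an authors' FDR under 0.05, 3 and 7 were, AXL and CYR61 among them in both lines. At a dispersion of 0.16, 3 and 3 were. Of the further targets, 7 were lower and 2 higher in SCC1, 2 lower and 1 higher in FaDu. The median scaling left 4 lower in SCC1 and 0 in FaDu. The FDR left 6 lower and 2 higher in SCC1, and 0 and 0 in FaDu. The dispersion of 0.16 left 4 lower and 1 higher in SCC1, and 0 and 0 in FaDu. The median scaling shifts every gene by 1 amount and the other settings are stricter thresholds; further causes were not tested. Depth left between 67 and 3486 reads per library behind AXL, CYR61 and FJX1, and 1 library per group gives no spread between cultures.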

Other observations

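CYR61 is also a target of serum response factor and its MRTF co-activators, which respond to actin. Of 22 genes of that kind, 5 were lower and none was higher in SCC1, and 5 were lower and none was higher in FaDu, 22.7% in each line against 8.19% and 6.44% of all tested genes. SRF itself was lower by 2.39 times (2.12 to 2.71) in the SCC1 pair and by 2.05 times (1.84 to 2.29) in the FaDu pair. MYH9, non-muscle myosin, was lower by 2.37 times (2.31 to 2.43) in the SCC1 pair and by 2.78 times (2.69 to 2.88) in the FaDu pair, and TPM4, a tropomyosin, 2.71-fold (2.58 to 2.84) and 2.79-fold lower (2.63 to 2.95). EGR1, which responds early to serum, went from 62.8 to 10.1 CPM in SCC1, a 6.21-fold difference (5.1 to 7.62), and was not listed in FaDu. In the authors' deposited table, EGR1 had an FDR of 4.17e-05, and the other listed genes of this list had an FDR above 0.05.

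Of 18 AP-1 genes, 2 were lower in SCC1 and 5 in FaDu, FOSL1 included, and none was higher. The 11.1% in SCC1 is near the 8.19% of all tested genes, and the 27.8% in FaDu stands against 6.44%. FOSL1 is the siRNA target, so its place in both shares was set by the design. The authors' deposited table gave every other listed AP-1 gene an FDR between 0.0665 and 0.302. ATF3 was 2.74-fold lower in FaDu (2.37 to 3.18) and ATF2 was lower by 2.26 times (1.97 to 2.59) in the SCC1 pair and by 2.64 times (2.3 to 3.04) in the FaDu pair. JUN, a common dimer partner of FRA1, was 2.28-fold lower in FaDu (2.11 to 2.45) and not listed in SCC1, and whether the lines differ in it was not tested.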
